A study of Mus musculus with 2 samples.

Results

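The genes described here are the ligands and receptors of the 4 classical axon guidance systems, in neural stem cells of the embryonic mouse brain with and without knockdown of the histone variant H3.3. They were chosen by gene symbol, as the semaphorins, plexins, neuropilins, ephrins, Eph receptors, Slits, Robos, netrins and the netrin receptors Dcc and Unc5. The choice was made with earlier results of these data known. The deposited table holds 66 such genes among 18510, in 11 families with 33 ligands and 33 receptors. Of these, 63 had a mean level of 1 CPM or more (CPM being counts scaled to a library total of 1000000), the minimum for a comparison, as did 13989 of all genes. Below it lay Efna1, Epha1 and Sema3g. A further 6 symbols that the rule takes in, Ntn3, Ntn5, Robo4 and 3 antisense transcripts of Plxna4, were not analysed here.

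Growth cones and migrating neurons read these cues through paired systems. Secreted Slits bind Robo receptors and mostly repel, and netrins attract through Dcc and repel through the Unc5 receptors. Semaphorins act through plexins, with neuropilins as the binding partners for most of the secreted class 3. Ephrins are tethered to the membrane, the A class by a lipid anchor and the B class by a membrane-spanning segment, and they signal through the Eph receptor tyrosine kinases of cells they touch. In the embryonic forebrain the same proteins also act on progenitors and on boundaries between regions.

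The cells came from the brains of CD-1 embryos at embryonic day 12, were kept for 5 days in a medium for proliferation, and were then given lentivirus that carried a plasmid for the knockdown of H3.3 or a control. Both groups therefore carry a lentivirus, and they differ in the plasmid. The knockdown values were matched to their sample by the name of their column, which ends in a 2 that the labels do not explain. The labels name neither promoter nor target sequence of the plasmids. With 1 library a group there is no replicate check, and the condition could not be tested. The libraries held 9184779 counts in the control and 8702855 in the knockdown, and the tested guidance genes had medians of 410 and 446 counts. Intervals are 95% intervals of the ratio of the counts in both libraries, and cover at most counting error. A count of 0 would allow up to 0.327 and 0.345 CPM, control first as in all pairs of values that follow. Of the genes for H3.3, H3f3b went from 821 to 447 CPM and H3f3a from 209 to 135 CPM, the direction of the labels.

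Few guidance genes passed the size rule, 4 of the 63 tested. To pass, a gene had to differ 2-fold with an interval that leaves out 1, and only genes that met it are said to rise or fall. Slit1, Plxnb3 and Sema3d fell, and the Eph receptor gene Epha8 rose. These are 3 of 63 lower (4.76%) against 2.54% of all tested genes, and 1 of 63 higher (1.59%) against 3.82%. Neither share stands far from that of all genes. The median log2 ratio of knockdown over control was 0.02 for the 63 members and -0.03 for all tested genes, and 40 members (63.5%) lay within 0.5 of 0, against 73.3% of all genes.

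With a threshold of 1.5-fold, chosen after the values were seen, 11 members were higher (17.5%) and 9 lower (14.3%). All tested genes gave 9.01% higher and 8.20% lower. The tested members had medians of 410 and 446 counts, against 285 and 258 for all tested genes. The part of counting depth in these shares was not tested. Where the mean level reached 10 CPM, 8 of 54 members (14.8%) passed in each direction, against 6.77% higher and 7.66% lower of all genes. The spread did not run through all families. Of 19 tested semaphorins 17 lay within 0.5 of 0, and of the 44 other members 23 did.

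**Figure D1:**
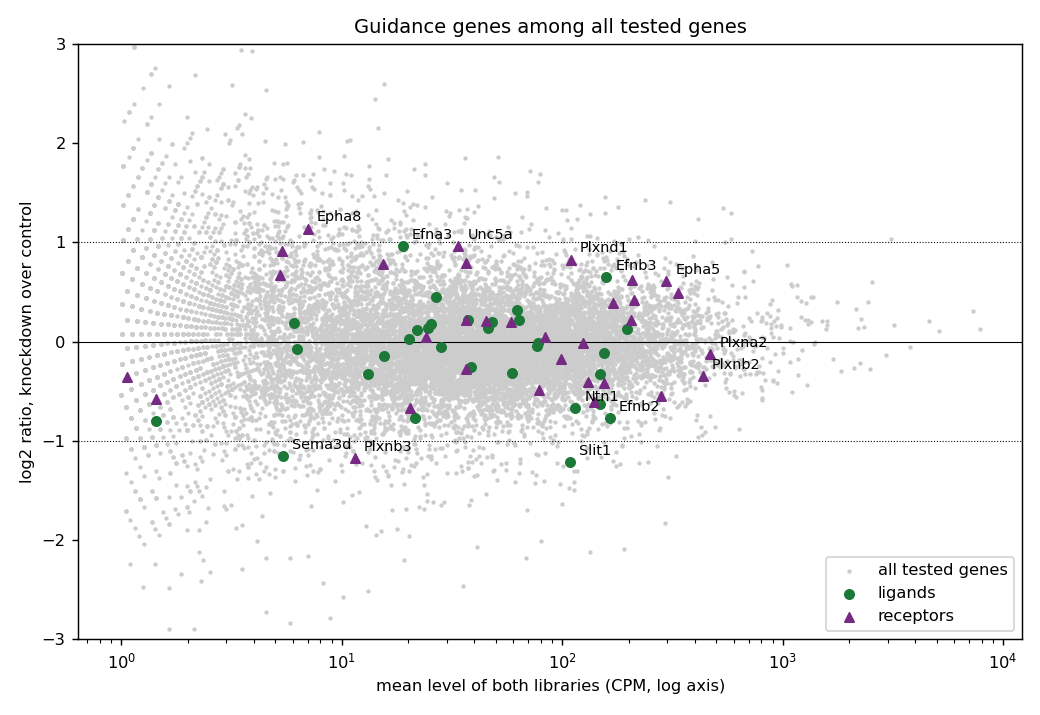
Mean level of both libraries in CPM (log axis) against the log2 ratio of knockdown over control, for all tested genes (grey), guidance ligands (circles) and receptors (triangles); dotted lines mark 2-fold, and 13 genes beyond a log2 ratio of 3 in size lie outside the plot. Slit1, at -1.22, lies lower than every other abundant guidance gene, while Epha8, Plxnb3 and Sema3d, also beyond 2-fold, were counted less deeply.

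Promoter sequence is shown for the genes past 2-fold and for Unc5a and Efna3, which lay just under it. Genes just short of 2-fold on the lower side were not added, so the higher and lower genes shown were not chosen alike. RefSeq windows of 250 bases before to 50 after a gene's start (GRCm38.p6) were at hand for 56 of the 66 members, taking the window nearest to the deposited start, which lay 219 bases off for Sema3d, 26 for Efna3 and 13 for Plxnb3. For 6 members the nearest window lay more than 500 bases off, farthest for Sema3a and Sema4d at 271370 and 37064 bases. None was at hand for Slit1. Capitals mark the GC box GGGCGG, a binding motif of Sp-family factors, or its reverse complement, with overlapping matches joined. The windows are chr4:136956767-136957066, minus strand, for Epha8; chr13:54949161-54949460, plus strand, for Unc5a; and chr3:89322890-89323189, minus strand, for Efna3. Those of the lower genes are chrX:73756853-73757152 for Plxnb3 and chr5:12382916-12383215 for Sema3d, both on the plus strand.
Epha8: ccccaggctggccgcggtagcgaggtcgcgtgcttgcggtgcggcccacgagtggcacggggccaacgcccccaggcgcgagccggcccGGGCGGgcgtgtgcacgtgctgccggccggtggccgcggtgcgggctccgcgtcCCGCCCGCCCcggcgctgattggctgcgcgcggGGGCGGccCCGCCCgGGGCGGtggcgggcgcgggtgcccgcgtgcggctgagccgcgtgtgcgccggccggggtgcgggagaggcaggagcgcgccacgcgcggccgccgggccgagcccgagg
Unc5a: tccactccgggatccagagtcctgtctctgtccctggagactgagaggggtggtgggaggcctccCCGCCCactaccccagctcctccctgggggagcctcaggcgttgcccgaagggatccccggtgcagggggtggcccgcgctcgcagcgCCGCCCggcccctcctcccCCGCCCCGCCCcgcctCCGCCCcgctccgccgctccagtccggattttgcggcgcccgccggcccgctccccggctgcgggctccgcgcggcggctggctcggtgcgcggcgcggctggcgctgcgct
Efna3: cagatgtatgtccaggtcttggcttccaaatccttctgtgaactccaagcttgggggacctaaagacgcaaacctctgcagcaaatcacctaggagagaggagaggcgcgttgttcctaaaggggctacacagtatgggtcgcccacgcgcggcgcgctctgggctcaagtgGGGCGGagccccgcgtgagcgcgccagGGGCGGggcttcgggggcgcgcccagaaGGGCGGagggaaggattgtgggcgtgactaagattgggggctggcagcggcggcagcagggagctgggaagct
Plxnb3: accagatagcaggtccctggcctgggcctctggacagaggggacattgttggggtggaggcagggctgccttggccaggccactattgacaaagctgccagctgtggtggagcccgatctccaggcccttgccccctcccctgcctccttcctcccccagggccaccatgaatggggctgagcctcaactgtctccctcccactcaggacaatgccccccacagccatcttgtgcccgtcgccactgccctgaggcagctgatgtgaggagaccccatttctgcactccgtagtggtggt
Sema3d: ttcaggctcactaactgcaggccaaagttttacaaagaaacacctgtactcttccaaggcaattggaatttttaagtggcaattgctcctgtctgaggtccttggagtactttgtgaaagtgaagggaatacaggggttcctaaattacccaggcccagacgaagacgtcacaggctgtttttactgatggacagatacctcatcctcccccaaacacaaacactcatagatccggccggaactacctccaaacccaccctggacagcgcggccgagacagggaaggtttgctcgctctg

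Epha8, which rose, had 56 CpG dinucleotides in its window, and Unc5a and Efna3, which stayed short of 2-fold, had 37 and 22. These windows held 6, 5 and 3 GC boxes. Plxnb3 and Sema3d had 4 and 8 CpG and no GC box. The GC box was in 42 of the 56 member windows (75%) and in 35.7% of all 32851 windows, and the median CpG number was 22.5 and 7. These sets are unlike. Members have 1 window each, while the 32851 windows belong to 27025 symbols, many of them without a row in the deposited table. The shares were not compared on like sets. Among the 50 member windows within 500 bases of the deposited start, a limit set after seeing the data, 38 (76%) held the GC box. Genes with ratios below 1 could have windows with many CpG and GC boxes too. Slit3, with a log2 ratio of -0.33, had 41 CpG and 6 GC boxes. Efnb2 and Efna5, both at -0.77 and short of 2-fold, had 35 and 38 CpG, with 3 and 4 GC boxes. Of other motifs searched on both strands, CCAAT was in 16 member windows (28.6%), TATAAA in 2 (3.57%), CACGTG in 3 (5.36%) and TGACGTCA in 1 (1.79%). All windows gave 37.4%, 13.6%, 7.15% and 1.79%. These matches are letters in a window, not binding sites.

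Slit1 showed the widest log2 difference of the tested members, and its Robo receptors went the other way. Slit1 (ENSMUSG00000025020, chromosome 19 from 41600257 to 41743665, minus strand), a secreted repellent of forebrain axons, fell from 1389 to 566 counts. That is 151 and 65.0 CPM, or 0.430 of the control (interval 0.389 to 0.475). Slit2, the repellent best known from the midline, had 605 and 460 counts (0.802, 0.709 to 0.907), and Slit3 had 134 and 101 counts (0.795, 0.608 to 1.04). All 3 Slits were thus below the control level, although the interval of Slit3 holds 1.

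Slit1 had the highest level of the family per length in the control, with 25.5 CPM per kb of annotated exons against 2.59 for Slit2 and 2.40 for Slit3. In the knockdown it was still the highest, at 11.0 CPM per kb. Its share of all Slit counts went from 65.3% (Wilson interval 63.2 to 67.3) to 50.2% (47.3 to 53.1). A share within the family does not depend on how the libraries are scaled. The 3 Slits together had 232 and 129 CPM, a ratio of 0.559 (0.520 to 0.601).

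Robo1 and Robo2, the main Slit receptors of the forebrain, had ratios above 1 and short of 1.5-fold. Robo1 had 1353 and 1677 counts (1.31-fold, 1.22 to 1.41) and Robo2 1657 and 2105 counts (1.34-fold, 1.26 to 1.43). Both genes lie on chromosome 16, and their shares of all Robo counts hardly moved, at 44.8% and 44.2% for Robo1. Robo3, known from commissural neurons of the hindbrain and spinal cord, was near the minimum with 11 and 8 counts. Its interval of 0.268 to 2.10 holds 1. The difference between the Slit and Robo families, with sums at log2 ratios of -0.84 and 0.40, is given without a test.

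In the netrin system the main ligand was lower and the Unc5 receptors higher. Ntn1, the secreted netrin that attracts axons through Dcc, had 1294 and 769 counts (0.627 of the control, 0.573 to 0.686), past 1.5-fold and short of 2-fold. Ntn4, a netrin of basement membranes, had 209 and 270 counts (1.36-fold, 1.13 to 1.64). The netrin pair thus split, and Ntn1 went from 86.1% of the netrin counts (84.3 to 87.8) to 74.0% (71.3 to 76.6).

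Dcc, the attractive receptor, had 963 and 807 counts (0.884, 0.804 to 0.972). Each of the 4 Unc5 genes, which encode the repulsive receptors, had a ratio above 1. Unc5a had 210 and 389 counts (1.95-fold, 1.65 to 2.32), just under the 2-fold threshold. Unc5d had 246 and 403 counts (1.73-fold, 1.47 to 2.03). Of the 4, Unc5a, Unc5b and Unc5d were past 1.5-fold, and none reached 2-fold.

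Unc5b, also known from growing blood vessels, had 104 and 170 counts (1.73-fold, 1.34 to 2.22). Unc5c was the smallest of these differences, with 313 and 344 counts (1.16-fold, 0.992 to 1.36), and its interval holds 1. Summed, the Unc5 genes had 95.05 and 150.1 CPM (1.58-fold, 1.45 to 1.72). Dcc made up 52.5% of the netrin receptor counts in the control (50.2 to 54.7) and 38.2% in the knockdown (36.1 to 40.3). Per length the order was also altered. Unc5a had 5.49 CPM per kb in the control, below Dcc at 7.96, and 10.7 in the knockdown, above Dcc at 7.04.

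**Figure D2:**
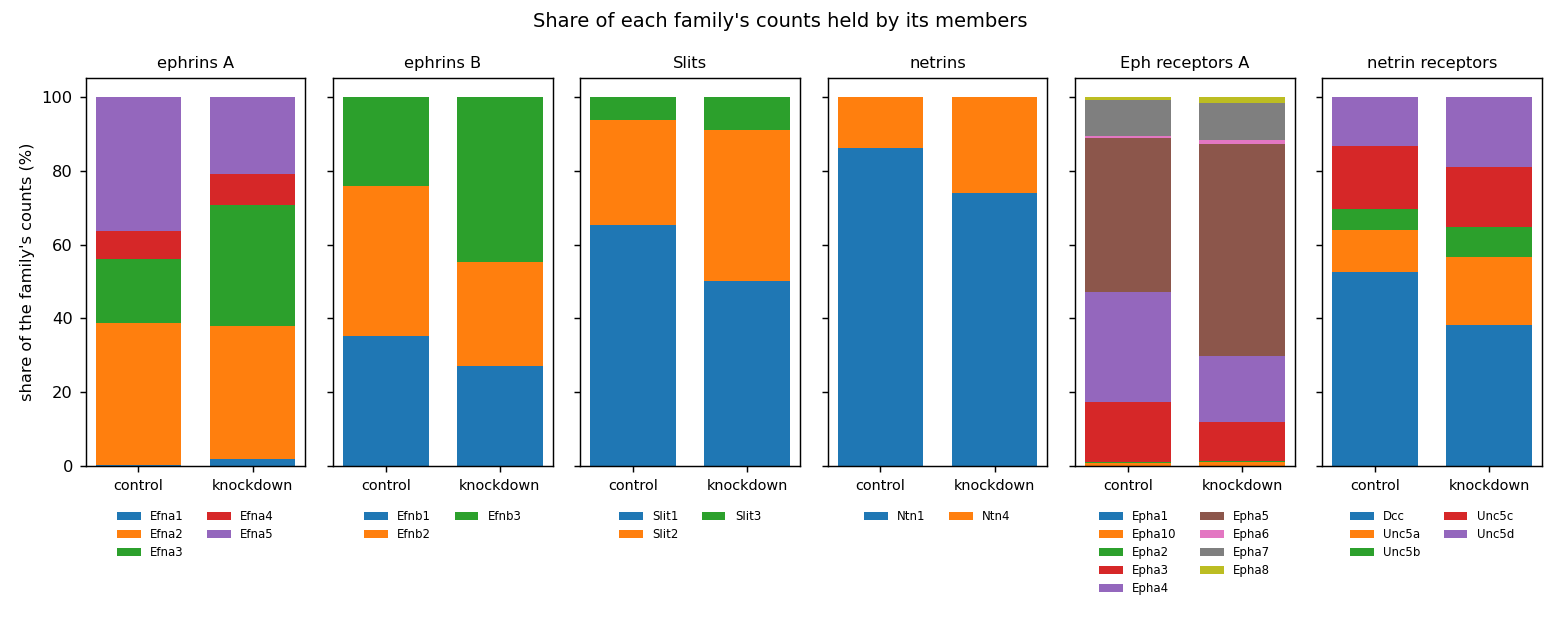
Share of each family's counts held by each of its members (%), in the control and the knockdown library, for 6 families. The share of Efnb3 among the B ephrins goes from 24.1% to 44.8%, that of Slit1 among the Slits from 65.3% to 50.2%, and that of Dcc among the netrin receptors from 52.5% to 38.2%.

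The ephrins of both classes held genes that went opposite ways. Efnb1 and Efnb2, transmembrane ligands of the B class, had 1659 and 1016 counts (0.646 of the control, 0.597 to 0.699) and 1904 and 1055 counts (0.585, 0.542 to 0.631). Efnb3, the third of the class, known as a midline barrier to corticospinal axons, had 1130 and 1684 counts (1.57-fold, 1.46 to 1.70). All 3 were past 1.5-fold, and none reached 2-fold.

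The B ephrins therefore changed places. Efnb1 had the highest level per length in the control, at 52.3 CPM per kb against 38.7 for Efnb3. In the knockdown Efnb3 was highest at 60.8 CPM per kb, against 33.8 for Efnb1 and 17.7 for Efnb2. The share of Efnb3 in the counts of the class went from 24.1% (22.9 to 25.3) to 44.8% (43.3 to 46.4). The class as a whole went from 511 to 431 CPM (0.844, 0.809 to 0.882).

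Among the A ephrins, which carry a lipid anchor, Efna3 had 118 and 218 counts (1.95-fold, 1.55 to 2.46) and Efna5 249 and 138 counts (0.585, 0.472 to 0.723). Efna5 is known for graded expression that sorts axons in topographic maps. Efna2, the highest of the class per length with 13.5 and 12.9 CPM per kb, hardly differed at 264 and 240 counts (0.959, 0.802 to 1.15). Efna4 had 52 and 56 counts. The differences cancelled in the sum, at 74.5 and 76.3 CPM (1.02-fold, 0.919 to 1.14).

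Efna1 had 1 and 12 counts, a ratio of 12.7 with an interval of 1.87 to 541, and stayed below the minimum level. It is a ligand known from endothelial and epithelial cells. Efna1, Efna3 and Efna4 lie side by side on the minus strand of chromosome 3 between 89271733 and 89338028, with gaps of 32.8 and 10.4 kb. Their log2 ratios, in that order along the chromosome, were 3.14, 0.96 and 0.18.

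Eph receptors of the A class spread in both directions, and those of the B class were level or lower. Epha8 (ENSMUSG00000028661, chromosome 4 from 136929419 to 136956816, minus strand), a receptor of the A class known from the midbrain, rose from 40 to 84 counts. Its 4.36 and 9.65 CPM give a ratio of 2.22 (1.504 to 3.32), so the interval reaches below 2-fold. Its neighbour Ephb2 lies 93.4 kb away on the same strand and had 1617 and 1148 counts (0.749, 0.694 to 0.809), a difference the other way.

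Epha5, the most abundant A receptor per length over both libraries, had 2158 and 3114 counts (1.52-fold, 1.44 to 1.61). Epha10, which lacks kinase activity, had 34 and 61 counts (1.89-fold, 1.23 to 2.97), and Epha6 had 37 and 56 counts (1.60-fold, 1.04 to 2.49). These 3 were past 1.5-fold. Epha4, a receptor for ephrins of both classes, went the other way with 1550 and 963 counts (0.656, 0.604 to 0.711). Epha3 had 844 and 571 counts (0.714, 0.641 to 0.795).

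Epha5 and Epha4 exchanged rank per length. Epha4 led with 21.0 CPM per kb in the control against 14.0 for Epha5, and Epha5 led with 21.4 against 13.7 in the knockdown. Epha7, known from the cortical progenitor zone, differed little with 503 and 545 counts (1.14-fold, 1.01 to 1.29). Epha2 and Epha1 were rare, with 16 and 10 counts and with 1 and 4 counts. As a class the A receptors had 564 and 621 CPM (1.10-fold, 1.06 to 1.14).

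Of the B receptors, Ephb4, the partner of Efnb2 in vessel formation, had 231 and 137 counts (0.626, 0.503 to 0.777), past 1.5-fold. Ephb3 had 369 and 289 counts (0.827, 0.706 to 0.967). Ephb1 had 760 and 741 counts (1.03-fold, 0.929 to 1.14), and the kinase-dead Ephb6 had 219 and 214 (1.03-fold, 0.850 to 1.25). The class sums were 348 and 291 CPM (0.835, 0.792 to 0.880). All Eph receptors together summed to 912 CPM in both libraries.

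**Figure D3:**
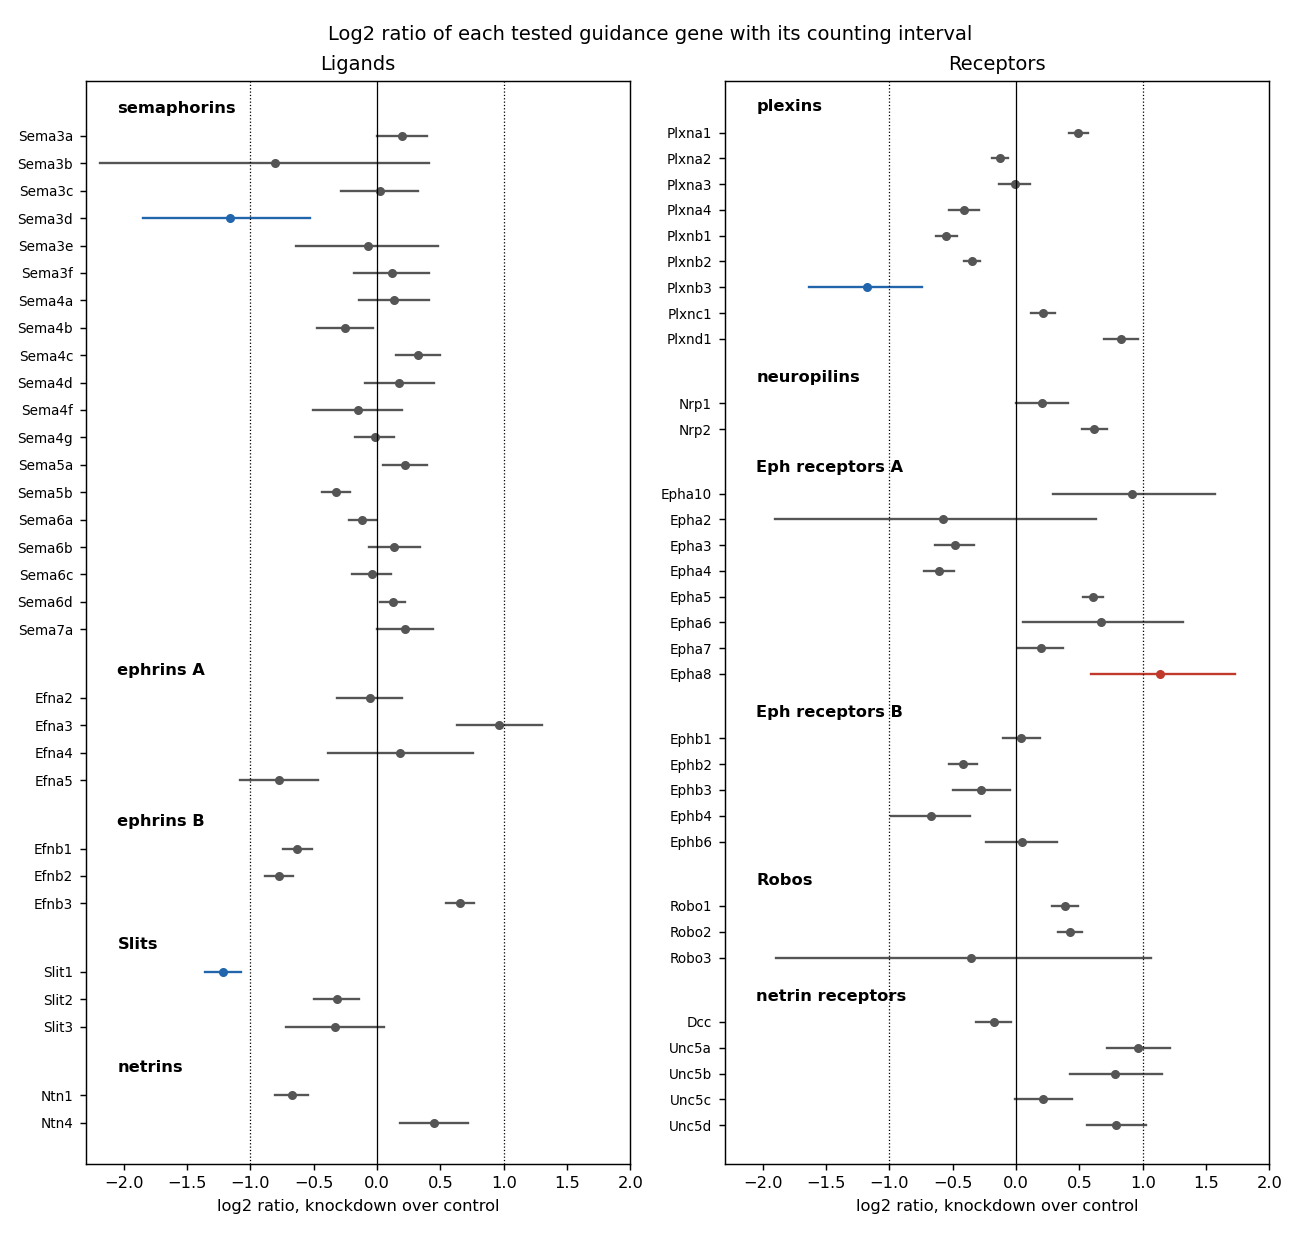
Log2 ratio of knockdown over control for each of the 63 tested genes, computed with 0.5 count added to each library, with the 95% counting interval as a line; blue and red mark genes that fell or rose by the 2-fold rule, and dotted lines mark 2-fold. Slit1, Plxnb3 and Sema3d lie left of the lower line and Epha8 right of the upper one, while the semaphorins cluster around 0.

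The semaphorins formed the largest family and stayed close to the control level. Summed over the family they had 1071 and 1073 CPM (1.00-fold, 0.973 to 1.03). Sema3d (ENSMUSG00000040254, chromosome 5 from 12383385 to 12588948, plus strand), a secreted semaphorin, was the only one to fall, from 69 to 29 counts (0.444, 0.277 to 0.694). It was among the rarer members, at 7.51 and 3.33 CPM. The other class 3 genes differed less. Sema3a, the secreted repellent of cortical axons, had 410 and 446 counts (1.15-fold, 1.00 to 1.32), and Sema3c, Sema3e and Sema3f had log2 ratios of 0.02, -0.08 and 0.11. Sema3b had only 17 and 9 counts (0.559, 0.219 to 1.33), and Sema3g 2 and 1.

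The 13 genes of classes 4 to 7, which are bound to the membrane, all lay within 0.5 of 0, from -0.32 for Sema5b to 0.32 for Sema4c. Sema5b had the highest mean level per length of the family, with 23.3 CPM per kb in the control and 18.6 in the knockdown, where Sema6d was higher at 19.4. Sema5b had 1516 and 1148 counts (0.799, 0.740 to 0.863). Sema4c, a ligand of Plxnb2, had 509 and 603 counts (1.25-fold, 1.11 to 1.41). Sema6d and Sema6a, which bind A plexins directly, had 1729 and 1783 counts (1.09-fold, 1.02 to 1.16) and 1483 and 1297 counts (0.923, 0.856 to 0.995). Sema7a, the lipid-anchored member that binds Plxnc1, had 316 and 349 counts (1.17-fold, 0.998 to 1.36). The remaining genes, Sema4a, Sema4b, Sema4d, Sema4f, Sema4g, Sema5a, Sema6b and Sema6c, ran from -0.25 for Sema4b to 0.22 for Sema5a.

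The plexins differed by subclass more than their ligands did. All 3 B plexins had intervals below 1. Of all 13989 tested genes, 3774 had intervals below 1 and 3204 above 1. Plxnb1 and Plxnb2 are receptors of class 4 semaphorins, and Plxnb3 binds Sema5a. Plxnb3 (ENSMUSG00000031385, chromosome X from 73757090 to 73772514, plus strand) fell from 146 to 61 counts (0.441, 0.322 to 0.598). Plxnb1 had 3051 and 1974 counts (0.683, 0.645 to 0.723). Plxnb2, the guidance gene with the highest level per length in the control, had 4456 and 3319 counts (0.786, 0.751 to 0.822), or 62.8 and 49.4 CPM per kb. The subclass sum went from 833 to 615 CPM (0.738, 0.713 to 0.765), and Plxnb3 made up 1.91% and 1.14% of its counts.

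Plxnb3 is known from cells of the oligodendrocyte lineage, whose markers did not all move alike. Of 10 such markers 6 fell and 0 rose (median log2 ratio -1.33), and none was at 0 counts. Of all tested genes 2.54% fell and 3.82% rose. Olig1 and Cspg4 went the other way short of 2-fold, with log2 ratios of 0.38 and 0.33 and intervals above 1. Olig2 was at 0.07 with an interval that holds 1, and Pdgfra at -0.20 with an interval below 1. Summed levels of the 10 markers were 2233 and 2020 CPM, and the early markers Olig1, Olig2 and Pdgfra made up most of the sum. The part of these cells in the result for Plxnb3 was not tested. In such bulk samples, fewer cells of a type and less RNA per cell cannot be told apart.

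Plxnd1, a receptor of Sema3e known from vessels and from some neurons, had 727 and 1221 counts (1.77-fold, 1.62 to 1.95), past 1.5-fold. Plxnc1 had 1747 and 1920 counts (1.16-fold, 1.09 to 1.24). Among the A plexins, which team up with neuropilins, Plxna1 had 2549 and 3394 counts (1.41-fold, 1.33 to 1.48) and Plxna4 1367 and 974 counts (0.752, 0.692 to 0.817). These went apart, while Plxna2 had 4501 and 3908 counts (0.916, 0.878 to 0.957) and Plxna3 1142 and 1074 counts (0.993, 0.912 to 1.08). The A plexins as a sum had 1041 and 1074 CPM (1.03-fold, 1.00 to 1.06), and Plxna1 went from 26.7% to 36.3% of their counts.

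Both neuropilin genes were at or above the control level. Nrp2, the partner for Sema3f, had 1503 and 2186 counts (1.53-fold, 1.44 to 1.64), past 1.5-fold. Nrp1, the partner for Sema3a and also a VEGF receptor, had 385 and 420 counts (1.15-fold, 1.00 to 1.33). Endothelial markers had few counts. Of the 5 such genes with counts here, 3 could be tested and 1 rose, with summed levels of 7.19 and 13.6 CPM, and Flt1 was at 0 counts in the control and 20 in the knockdown. Kdr made up most of both sums, at 5.99 and 9.77 CPM. Plxnd1 had 79.2 and 140.3 CPM, but levels of different genes do not measure the share of a cell type. The part of endothelial cells in the values of Plxnd1, Nrp1, Efnb2 and Ephb4 was not tested.

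**Figure D4:**
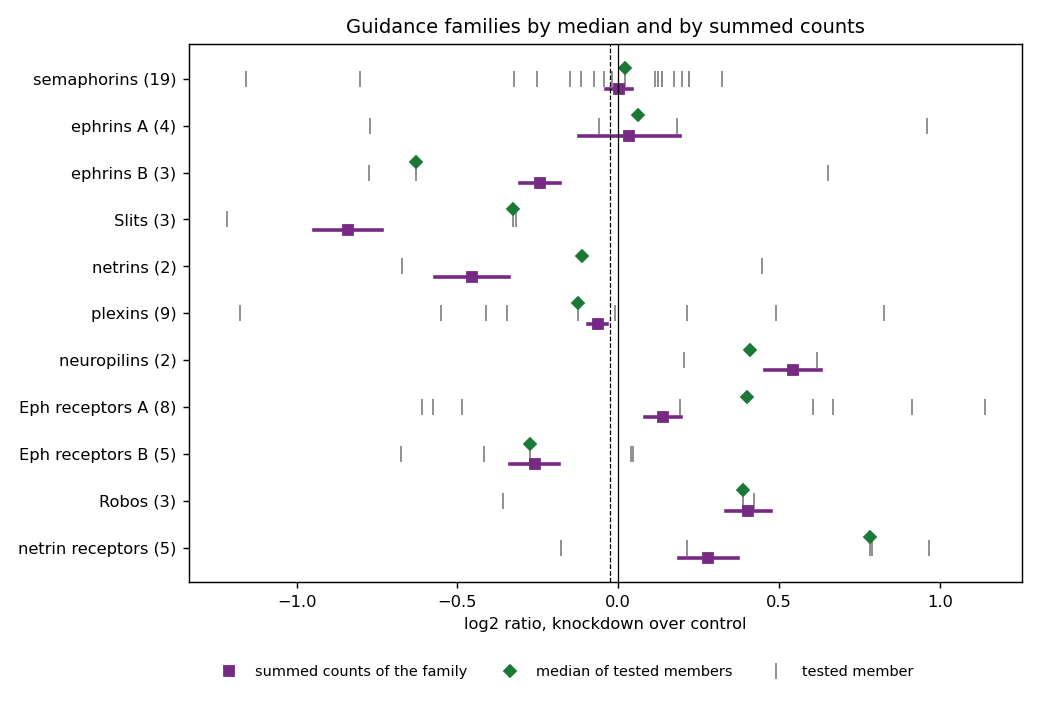
Log2 ratio of knockdown over control for the 11 families (number of tested members in parentheses), as the family's summed counts with their counting interval (squares), as the median of tested members (diamonds) and for each tested member (ticks); the dashed line is the median of all tested genes. The Slit sum lies lowest at -0.84 and the neuropilin sum highest at 0.54, while the semaphorin sum lies at 0.00.

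Set side by side, ligand counts were lower in sum and receptor counts slightly higher. The 33 ligand genes summed to 2052 and 1829 CPM (0.892, 0.873 to 0.911), and the 33 receptor genes to 3790 and 3940 CPM (1.04-fold, 1.02 to 1.06). By members the difference was less clear, with a median log2 ratio of -0.04 over 31 tested ligands and 0.12 over 32 receptors. At 1.5-fold, 2 of 31 ligands were higher (6.45%) and 6 lower (19.4%), and 9 of 32 receptors were higher (28.1%) and 3 lower (9.38%), against 9.01% and 8.20% of all tested genes. The shares of higher ligands and lower receptors are thus close to those of all genes. Of the 6 lower ligands, Slit1, Ntn1, Efnb1 and Efnb2 were abundant, and Efna5 and Sema3d were rarer.

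**Figure D5:**
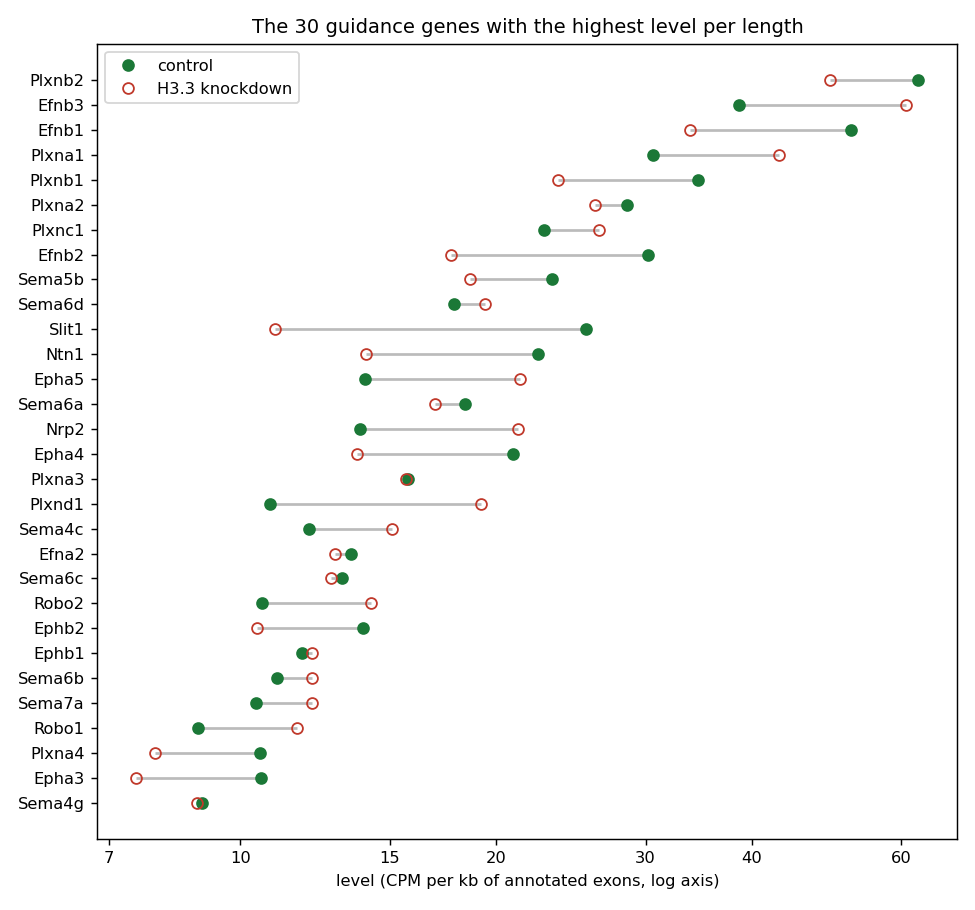
Level in CPM per kb of annotated exons (log axis) for the 30 guidance genes with the highest mean level per length, in the control (filled) and the knockdown (open). Plxnb2 leads the control at 62.8 and Efnb3 the knockdown at 60.8, and the longest line belongs to Slit1, from 25.5 to 11.0.

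Genes that act downstream of the receptors or beside them, and further guidance molecules, moved less than 2-fold in most cases. The effector lists also take in some receptors and ligands, such as Neo1 and Dscam for netrins and Nell2 for Robo. Of 134 tested genes in 6 lists 6 rose (4.48%) and 2 fell (1.49%), with a median log2 ratio of 0.11. These shares are close to the 3.82% and 2.54% of all tested genes, which also stand as the background for each list that follows. Among effectors of semaphorin signalling 1 of 22 fell and none rose. That gene was Dpysl4, one of the collapsin response mediators, which went from 1221 to 494 counts (0.427, 0.384 to 0.474). Among effectors of Eph signalling Vav3, a guanine nucleotide exchange factor, rose from 119 to 248 counts (2.20-fold, 1.76 to 2.76) as 1 of 21. Of 22 effectors of Slit and Robo only the kinase gene Pak3 fell, from 2794 to 1311 counts (0.495, 0.463 to 0.529), a call lost with TMM scaling.

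In the netrin effector list 2 of 22 rose, 1 of them short of 2-fold with DESeq2 scaling or 5 counts added. The other, Ablim1, which encodes an actin-binding LIM protein, went from 332 to 895 counts (2.85-fold, 2.51 to 3.24). Of 28 other guidance molecules 3 rose and none fell, namely Ret, the receptor tyrosine kinase for GDNF (39 to 153 counts, 4.14-fold, 2.90 to 6.05), Rtn4rl2, a relative of the Nogo receptor (2.42-fold, 1.82 to 3.25), and the contactin Cntn4 (2.36-fold, 1.79 to 3.15). The list of actin regulators had none of 19 past the rule, with log2 ratios of 0.14 for cofilin Cfl1 and -0.25 for Cdc42.

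Markers of neurons and of progenitors also moved. Of 12 neuron markers 4 rose and none fell (median log2 ratio 0.76), with summed levels of 5775 and 7887 CPM. Elavl3 and Tubb3, also neuron markers, had ratios of 0.861 (0.822 to 0.901) and 0.956 (0.928 to 0.985). Of 10 progenitor markers 2 fell and none rose (median -0.37), with sums of 5350 and 5126 CPM. No marker of either list was at 0. Many guidance receptors are known from neurons and from progenitors alike, and the part of the cell makeup in any value above was not tested. Of the other lists, astrocyte markers had 1 of 6 lower, mesenchyme and pericyte markers 3 of 6 higher and 1 lower, microglia and macrophage markers 1 of 3 higher and choroid plexus markers 1 of 2 higher. No erythroid marker reached 1 CPM.

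For 16 members the exons overlap those of another annotated gene, and no source used here says whether counting used strand. For Plxna1 the antisense gene Gm26811 overlaps 10.7% of the annotated exon length, and for Efna3 the antisense gene Gm15998 overlaps 14.1%. Neither antisense gene was analysed here. Unc5a shares 34 bases with Hk3 on the other strand, which had 2 and 9 counts. Slit1, Plxnb3, Sema3d and Epha8 have no overlapping exons in the annotation.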

How the data were processed

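Polyadenylated RNA of both libraries was sequenced on an Illumina instrument, per the series' design text; 2 µg of total RNA went in, per the labels' protocols. HTSeq 0.6.0, Bowtie 1.0.1 and TopHat2 2.0.12 were used, per the submitters' processing notes. Their settings, the genome build and the handling of strand are not stated in the sources at hand. The authors deposited whole-number counts per gene, not normalized, per the file headers, for 18510 genes with at least 2 counts in all. Symbols were found for 18423 Ensembl IDs. Positions are those of the deposited table, and for 51 of the 66 members they equal GENCODE vM21 (GRCm38), which also gave exon lengths.

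Counts were scaled to the column totals. Log2 ratios used 0.5 count added to each library, and intervals are exact conditional (Clopper-Pearson) intervals without added counts. Reads were amplified by PCR and carry no molecular identifiers, so intervals cover at most counting error and may be too narrow even for that. To pass the size rule, a gene needed a mean level of 1 CPM, a difference of 2-fold and an interval without 1. Shares have Wilson intervals. Levels per length divide CPM by the union of annotated exons, which can overstate the length of the transcript present. The procedure was run on simulated counts with counting error alone, as the intervals assume, and no spread between cultures. That run therefore cannot show how the calls would hold between cultures. The alternatives used edgeR 4.0.16 (TMM) and DESeq2 1.42.0 (size factors), and scipy 1.17.1 gave the intervals.

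Members, lists and thresholds were chosen with earlier results of these data known. Every member could be named. Of the effector lists, up to 4 genes past the rule were named, or otherwise the most abundant; some genes past the rule are not reported here.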

Additional observations from a re-analysis of the deposited data

How the results depend on the processing

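With 1 library per group, the limits are counting depth and the choice of settings; the spread between cultures is unknown. No paired analysis was possible because each group holds 1 library. The calls of Slit1, Plxnb3, Sema3d and Epha8 were kept under TMM scaling, DESeq2 size factors, no minimum, 5 counts added and the length and GC correction. With a minimum of 10 CPM, Slit1 and Plxnb3 were tested and kept their calls, and Epha8 and Sema3d were not tested, so that 0 members were higher. Without a minimum 2 members were higher, the second being Efna1. With the length and GC correction 2 were higher, the second being Unc5a at a log2 ratio of 1.02. With a threshold of 1.5-fold, added after the data were seen, 11 members were higher and 9 lower, and 15 genes of the effector lists were higher and 9 lower. With TMM scaling 1 effector gene was lower, since Pak3 had a log2 ratio of -0.9965, and 5 effector genes were higher in place of 6 with DESeq2 size factors and with 5 counts added. The median of the A-class Eph receptors was 0.40 with 8 genes and -0.15 with the 4 genes of at least 10 CPM. The sign of the log2 ratio turned in 1 alternative each for Plxna3 and Sema3c, both near 0. No alternative scaling moved the median of all tested genes by over 0.02. Sema3d, Epha8, Epha10, Epha6 and Efna1 rest on few counts.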

Other observations

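A search of the deposited annotation for the axon guidance term with a closing semicolon found 94 genes. An entry without that mark would be missed. This set was examined only once values were known. It holds 25 of the 66 ligands and receptors (37.9%), which make up 26.6% of the set. Of the other 61 tested genes in it, 7 rose (11.5%) and 3 fell (4.92%) by the 2-fold rule, against 3.82% and 2.54% of all tested genes, with a median log2 ratio of 0.18. Besides Ablim1, those that rose include Cacna1g, a T-type calcium channel (304 to 951 counts, 3.302-fold, 2.90 to 3.77), and Ank3, the ankyrin of the axon initial segment (2427 to 4637 counts, 2.02-fold, 1.92 to 2.12). Ank3 did not reach 2-fold with DESeq2 size factors, at a log2 ratio of 0.9995, and with the length and GC correction, at 0.96. The secreted synaptic protein gene Lgi1 went from 112 to 277 counts (2.61-fold, 2.09 to 3.28). Of the collagen genes in the set, Col5a3 went from 59 to 138 counts (2.47-fold, 1.81 to 3.41) and Col6a3 from 10 to 31 (3.27-fold, 1.56 to 7.48). The other gene that rose was Gap43. Among those that fell were the homeobox genes Dlx5, from 536 to 167 counts (0.329, 0.275 to 0.392), and Vax1, from 160 to 25 counts (0.165, 0.104 to 0.252).

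Some ligands and receptors are close neighbours. Within 500 kb of each other lie Ephb2 and Epha8 (log2 ratios -0.42 and 1.14), Sema3a and Sema3e (0.20 and -0.08), and Sema3b and Sema3f (-0.80 and 0.11), besides the A ephrins of chromosome 3. The counting intervals of Sema3b, Sema3e and Sema3f hold 1. With 1 library a group, no interval here settles a direction between the conditions.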
